A study of Homo sapiens with 6 samples.

Results

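The metallothionein genes of human chromosome 16 form a cluster of small genes that lie next to each other. The 10 protein-coding members examined here were MT4, MT3, MT2A, MT1E, MT1M, MT1A, MT1F, MT1G, MT1H and MT1X, in order along the chromosome. They were chosen by name, among 20037 protein-coding genes on chromosomes 1 to 22, X and Y, and together they span 119 kb. Peaks were taken from a window of 250 kb around them (coordinates in GRCh38), which also holds the start of BBS2 on one side and the start of NUP93 on the other. Chromatin accessibility was measured by ATAC-seq, in which a transposase cuts open DNA and leaves sequencing adapters there, so that accessible sites collect fragments. The cells were NCI-H1703, an established human line labelled lung squamous cell carcinoma. Cells with DLGAP1-AS2, a long non-coding RNA, silenced gave 3 libraries (silenced replicates 1 to 3), and cells labelled control gave the other 3 (control replicates 1 to 3). The 10000 to 50000 cells behind each library came from 1 line, and the labels do not say whether replicates were separate cultures, so p-values measure only the spread between these libraries, which may be technical.

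Metallothioneins are short, cysteine-rich proteins that bind zinc and copper and sequester toxic metals such as cadmium. Their genes are classic metal-inducible genes: the zinc-finger factor MTF1 binds zinc and then metal response elements (MREs), short motifs repeated in metallothionein promoters. MT2A and the MT1 genes are expressed in many tissues, MT3 mainly in brain, and MT4 in stratified squamous epithelium.

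The deposited lists held 162115, 167966 and 121406 peaks in silenced replicates 1 to 3 and 170882, 91346 and 165674 in control replicates 1 to 3. Read numbers are not in the files, so the depth in reads is unknown. The median height (the authors' pileup value) of 37284 regions called in all 6 libraries was 16, 18 and 10 in the silenced and 17, 19 and 17 in the control libraries, which puts silenced replicate 3 below the other 5. The list of control replicate 2 holds no peak under a height of 3, whereas the other lists start at 2. As a check of the labelled cell type, a peak at the start was called in all 6 libraries for SOX2, in 1 for TP63 and in none for KRT5 and KRT6A, all squamous lineage genes. Of adenocarcinoma lineage genes, NKX2-1 and NAPSA had a peak in all 6 libraries and SFTPB in silenced replicates 1 and 2, so the squamous label was not matched by most of these starts.

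RefSeq promoter sequences (GRCh38.p14) were at hand for 4 of the 10 members. They are shown because the peaks described next lie on some of them and not on others. Each is the plus strand of the 250 bases before the gene's start, 5′ to 3′, with every MRE core in capitals. The core was searched as TGCACNC and TGCGCNC on both strands. MT2A (chr16:56608334-56608583) holds 7 cores, MT1X (chr16:56682220-56682469) 4, MT1H (chr16:56669564-56669813) 8 and MT4 (chr16:56564823-56565072) 3.
MT2A: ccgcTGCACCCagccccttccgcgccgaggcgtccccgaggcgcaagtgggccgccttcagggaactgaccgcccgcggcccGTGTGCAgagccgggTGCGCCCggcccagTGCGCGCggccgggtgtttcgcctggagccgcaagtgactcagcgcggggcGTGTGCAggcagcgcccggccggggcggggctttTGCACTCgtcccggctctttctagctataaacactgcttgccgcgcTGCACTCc
MT1X: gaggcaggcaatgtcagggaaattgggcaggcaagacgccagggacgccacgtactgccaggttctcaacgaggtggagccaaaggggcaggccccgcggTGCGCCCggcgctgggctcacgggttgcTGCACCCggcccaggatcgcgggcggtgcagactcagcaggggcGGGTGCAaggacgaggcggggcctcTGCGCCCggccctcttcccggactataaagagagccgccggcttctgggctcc
MT1H: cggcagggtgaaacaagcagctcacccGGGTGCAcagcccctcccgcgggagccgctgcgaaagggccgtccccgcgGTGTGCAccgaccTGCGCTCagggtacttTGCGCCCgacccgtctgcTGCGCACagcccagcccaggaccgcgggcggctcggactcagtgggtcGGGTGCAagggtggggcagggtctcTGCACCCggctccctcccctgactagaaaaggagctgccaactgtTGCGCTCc
MT4: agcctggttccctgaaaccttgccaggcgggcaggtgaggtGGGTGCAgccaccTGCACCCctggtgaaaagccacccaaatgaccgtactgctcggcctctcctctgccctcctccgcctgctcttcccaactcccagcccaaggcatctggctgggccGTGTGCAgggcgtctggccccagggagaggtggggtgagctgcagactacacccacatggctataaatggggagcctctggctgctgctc

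No pair of cores overlapped. Of 35116 promoters in the same table, 24.8% held at least 1 core, 6.48% at least 2, 0.37% at least 4 and 0.0513% at least 6. The GC box (GGGCGG, either strand), a site of SP1-type factors, was found 2 times in MT2A, 2 times in MT1X, 1 time in MT1H and in 42.6% of all promoters; 1 of those in MT1X overlaps an MRE core. A TATA box (TATAAA, either strand) was present in MT2A, MT1X and MT4 and in 10.7% of all promoters, and these letters were not found in the MT1H window. The core of the antioxidant response element (TGACNNNGC, either strand) occurred 1 time each in MT2A and MT1X and in 10.9% of all promoters. GC content was 73.2% for MT2A, 70.0% for MT1X, 70.4% for MT1H and 64.4% for MT4, against a median of 58% over the table. The longest exact run shared by MT2A and MT1X was 12 bases.

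Accessibility at the cluster was concentrated on 3 members. A member was counted where the midpoint of a peak lay within 1 kb of its start, or of either end of its span for the 6 members with no promoter entry. By this rule MT2A, MT1E and MT1X were called in all 6 libraries, MT3, MT1M, MT4 and MT1H in 1 or 2, and MT1A, MT1F and MT1G in none. Thus 3 of 10 members were called in every library and 3 of 10 in none, where 58.9% of protein-coding genes were called in every library and 19.1% in none. These shares are not measured quite alike: either end served for 6 of the 10 members, whereas 15842 of the 20037 genes had a listed start. In silenced replicate 3, MT1E was called only at its upper end. Per library, 3.67 ± 0.577 members were called in silenced and 4.33 ± 0.577 in control cells (mean ± SD, n = 3 each), a difference of -0.667 that rests on single weak peaks.

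**Figure D1:**
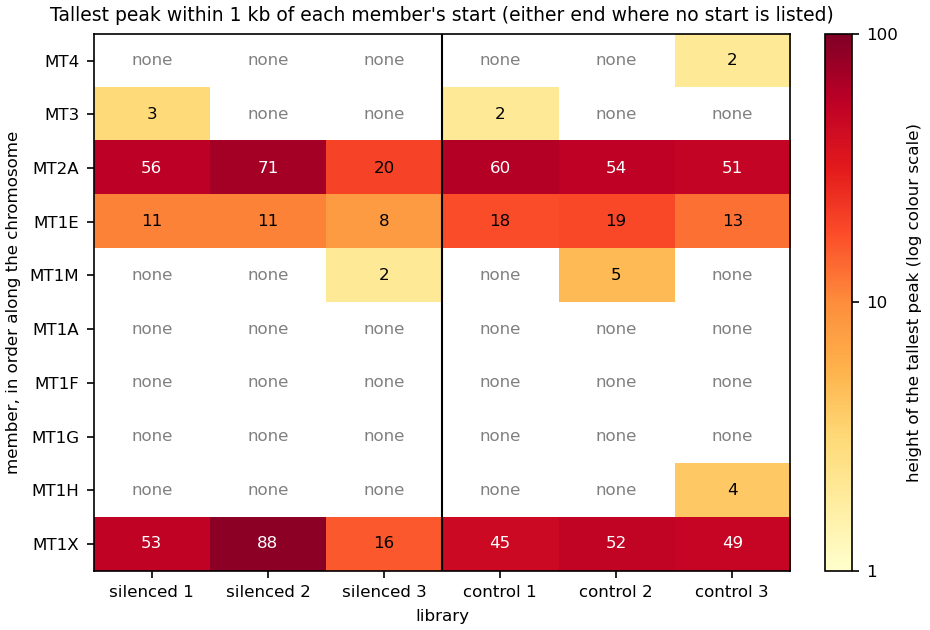
Height of the tallest peak within 1 kb of the start (or of either end where no start is listed) of each of the 10 members (rows) in each library (columns), on a logarithmic colour scale with the height printed in each cell. MT2A and MT1X reach 45 to 88 outside silenced replicate 3, MT1E lies between 8 and 19, and the other members are at 5 or less or have no peak.

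MT2A (chr16:56608584-56609497) encodes the most widely expressed human metallothionein. Its peak had a height of 56, 71 and 20 in silenced replicates 1 to 3 and of 60, 54 and 51 in control replicates 1 to 3. Only silenced replicate 3 was low, and the other silenced libraries lay on both sides of control replicate 1. Relative to the median height of the shared regions of its own library, the MT2A peak stood at 3.50, 3.94 and 2.0 in silenced and 3.53, 2.84 and 3.0 in control cells. Between 7.72% and 19.8% of the shared regions of a library were taller. The peaks lay on the promoter printed above: they covered 100% of its 250 bases in silenced replicate 2 and in the 3 control libraries, 98.0% in silenced replicate 1 and 51.6% in silenced replicate 3.

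The background set against the MT2A peak was high as well. How much of it came from fragments of MT2A and the nearby peaks themselves was not tested. The background coverage that the peak caller set against a peak, recovered as (height + 1) / fold enrichment − 1, was 3.26, 5.08 and 1.82 for MT2A in silenced and 4.10, 4.62 and 4.22 in control cells. Median values over the shared regions were 1.08, 1.24 and 0.64 in silenced and 1.14, 1.38 and 1.14 in control cells, and 5.41% to 11.1% of shared regions had a higher background than MT2A. Consequently MT2A ranked lower by fold enrichment than by height: 16.3% to 38.6% of shared regions had a higher fold. Additional peaks lay just upstream, at chr16:56607262-56607625 (called in silenced replicates 2 and 3 and control replicates 2 and 3, height 12 to 26), at chr16:56603629-56603915 (silenced 2 and 3, control 1 and 3, height 13 to 23) and at chr16:56600397-56600769 (all but control replicate 1, height 7 to 19). Each of these was called in libraries of both groups.

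MT1X (chr16:56682470-56684196) is the last member of the cluster along the chromosome. Heights were 53, 88 and 16 in silenced and 45, 52 and 49 in control replicates 1 to 3. The control libraries lay close together, while the silenced libraries held both the highest and the lowest value of the 6. Fold enrichment was 17.6, 23.1 and 8.85 in silenced and 15, 15.6 and 15.7 in control cells, and in each library it was above that of MT2A (7.45 to 13.4). By height the order was reversed in all libraries except silenced replicate 2, since the background behind the MT1X peak was 0.92 to 2.86. Every base of the printed MT1X promoter lay under a peak in all 6 libraries. Of 11978 protein-coding genes with a shared region at the start, ZNF223, PIGU and RNF19B had rank scores most like those of MT1X over the 6 libraries (Euclidean distance 0.676, 0.706 and 0.714).

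MT1E (chr16:56625781-56627112) showed the third, weaker site, in a pair of regions at the ends of its span. The region over the lower end (chr16:56625030-56626237) had a height of 11 in silenced replicates 1 and 2, no call in silenced replicate 3, and 18, 19 and 13 in control replicates 1 to 3. The region beyond the upper end (chr16:56627194-56627694) had 11 and 8 in silenced replicates 1 and 3, no call in silenced replicate 2, and 9, 15 and 9 in the controls. At the lower end silenced replicates 1 and 2 thus lay below every control library in deposited height, which is not scaled between libraries. Divided by the median of the shared regions, the lower end stood at 0.688 and 0.611 in silenced replicates 1 and 2 and at 1.06, 1.0 and 0.765 in the controls. Ranked by fold enrichment within each library, with silenced replicate 3 left out, the groups overlapped at this end. By that ranking, 20.5% of 41835 regions had groups that did not overlap. The share of regions whose groups are apart by height, deposited or divided by the median, was not counted. The tallest MT1E peak at either end had an FDR (the authors' adjusted p-value) of 2.91e-05, 7.70e-05 and 0.000278 in silenced and 6.44e-10, 9.05e-12 and 3.50e-06 in control replicates 1 to 3. That peak lay at the upper end in silenced replicates 1 and 3 and at the lower end in the other libraries, so these values mix the ends. The best lower-end peak of silenced replicate 1 had an FDR of 3.32e-05. Under a limit of 1e-05, with a peak at either end counted, MT1E was therefore called in all 3 control and in no silenced library. This pattern was held by 0.225% of protein-coding genes, against 0.00998% for the opposite pattern. FDR moves with depth, and the part of depth in this pattern was not tested.

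**Figure D2:**
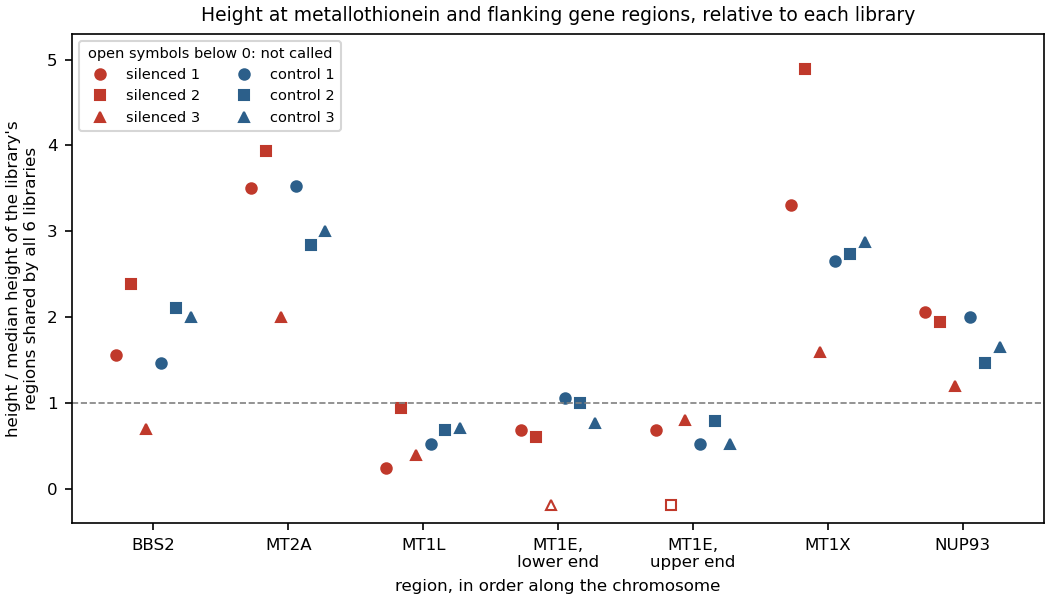
Height of the peak at metallothionein and flanking gene regions (horizontal axis, in order along the chromosome) divided by the median height of the shared regions of the same library (vertical axis); red symbols are silenced and blue symbols control libraries, the symbol shape gives the replicate, and open symbols below 0 stand for no call. MT2A and MT1X lie between 1.6 and 4.89, and silenced replicate 3 is the lowest library at MT2A, MT1X, BBS2 and NUP93.

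The other members had weak or no peaks. MT3 (chr16:56589528-56591085), the brain form, had a peak of height 3 in silenced replicate 1 and of height 2 in control replicate 1. MT4 (chr16:56565073-56568957), the form of squamous epithelium, had 1 peak of height 2 in control replicate 3 with an FDR of 0.516. MT1M (chr16:56632659-56633981) had a height of 2 in silenced replicate 3 and of 5 in control replicate 2. MT1H (chr16:56669814-56671129) had 1 peak of height 4 in control replicate 3 that lay past its start, so that 0% of the printed promoter was covered in any library, although it holds the most MRE cores of the 4. None of these calls reached an FDR of 0.01: the lowest was 0.0195, for MT1M.

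For MT1A (chr16:56638666-56640087), MT1F (chr16:56657959-56659303) and MT1G (chr16:56666730-56668065), the nearest midpoint in any library lay 1187, 1359 and 2167 bp away. Of the other metallothionein loci in the table, the pseudogene MT1L (chr16:56617461-56618818) was called in all 6 libraries, with a height of 4, 17 and 4 in silenced and 9, 13 and 12 in control cells. The MT1L peak of height 4 in silenced replicate 1 had an FDR of 0.128. MT1B had 1 call, of height 3 in silenced replicate 2, and the pseudogenes MT1JP and MT1DP had none. Near-identical copies in this family can share reads, so a weak or missing peak at an MT1 gene is uncertain where the aligner could not place reads. Among the promoters of MT2A, MT1X, MT1H, MT4 and MT1B, the longest exact run shared by any pair was 18 bases (MT1B and MT1X). The promoters of the remaining members were not at hand, and the part of shared reads was not tested.

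Across the window the 6 lists merged into 52 regions. Of these, 9 were called in all 6 libraries, 19 in 2 to 5 and 24 in 1. In the 55.4 kb between MT1E and MT1X, which hold MT1M, MT1A, MT1F, MT1G and MT1H, 11 regions lay over 1 kb from both genes. Of those, 9 were called in 1 library, 1 in 2 to 5 and 1 in all 6. The last of these (chr16:56673960-56674326) lies between MT1H and MT1X, with a height of 9, 13 and 10 in silenced and 10, 10 and 9 in control cells. Of the other shared regions with no member at them, chr16:56577015-56577361, between MT4 and MT3, had a height of 5, 6 and 3 in silenced and 8, 6 and 7 in control cells. Past MT1X, chr16:56701989-56702429 had 14, 20 and 14 in silenced and 18, 16 and 10 in control cells. Inside BBS2, chr16:56513945-56514435 had 8, 10 and 8 in silenced and 9, 17 and 9 in control cells. At each of these 3 regions the groups overlapped. Outside the cluster, BBS2, a gene of the Bardet-Biedl cilium complex, had a height of 25, 43 and 7 in silenced and 25, 40 and 34 in control cells. NUP93, which encodes a nuclear pore subunit, had 33, 35 and 12 in silenced and 34, 28 and 28 in control cells. OGFOD1 and NUDT21, beyond the window, were called in all 6.

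**Figure D3:**
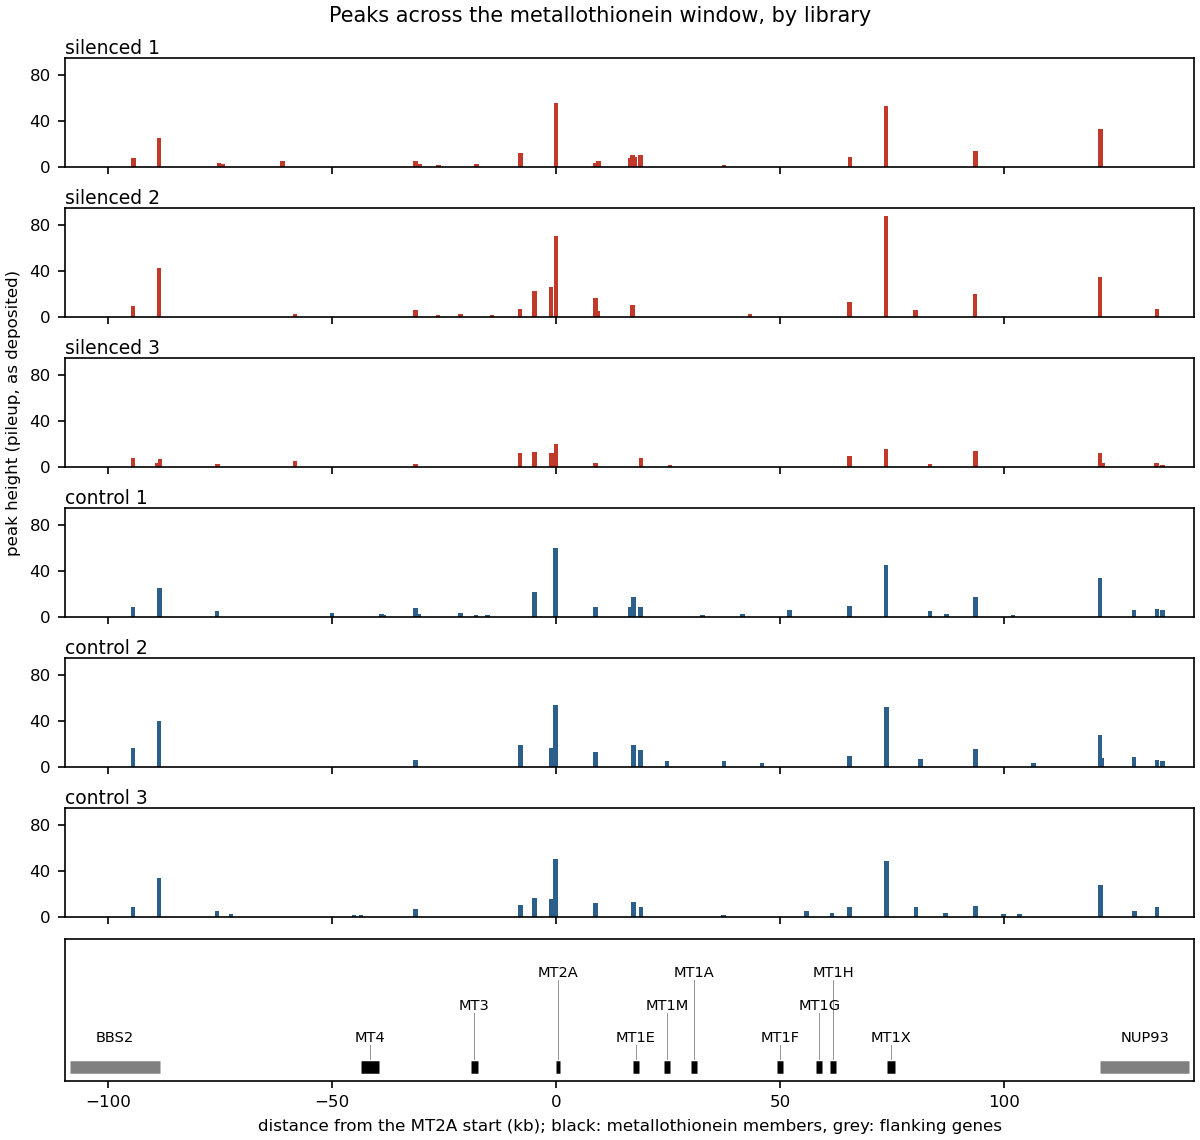
Peaks in the 250 kb window by distance from the MT2A start in kb (horizontal axis) and by deposited height (vertical axis), in 1 panel per library (red, silenced; blue, control), with the members in black and the flanking genes in grey at the bottom. MT2A, MT1X, BBS2 and NUP93 carry the tall peaks, and the stretch from MT1M to MT1H holds scattered peaks under a height of 10.

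The window held 22, 21 and 21 peaks in silenced and 30, 22 and 27 in control cells, or 21.3 ± 0.577 against 26.3 ± 4.04 (mean ± SD, n = 3 each). The groups met at 22, and the difference of -5.0 was -3.17 without control replicate 1. Peaks covered 7598, 8380 and 6653 bp of the window in silenced and 9692, 7590 and 9125 bp in control cells, which overlap. Restricted to a height of at least 4, the counts were 17, 16 and 16 in silenced and 21, 22 and 21 in control cells and did not overlap, while the whole lists held 81791, 87167 and 58135 such peaks in silenced and 85751, 89096 and 85730 in control cells. Per 100000 such peaks of the list, the window held 20.8, 18.4 and 27.5 in silenced and 24.5, 24.7 and 24.5 in control cells, and on that scale the groups overlapped, with silenced replicate 3 above every control. With all lists cut to the 91346 strongest peaks, the window held 16, 15 and 18 against 21, 22 and 20. At an FDR of at most 1e-05 it held 8, 10 and 8 against 10, 12 and 12. No test was made of these sums, since the window was chosen with earlier results known. Other windows of this size were not counted, so how often such counts separate the groups elsewhere is unknown.

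By region, 26 of the 52 were called in more control than silenced libraries and 9 in more silenced than control libraries, or 50% and 17.3%. The same shares over all 507440 regions were 40.1% and 44.8%. Of the 52 regions, 24 were called in 1 library only, most of them in a control library. Each of these counts toward the group of that library, so many of the majorities rest on a single call. No window region was called in all 3 silenced and no control library, a pattern of 0.130% of all regions. The opposite pattern, held by 0.200% of all regions, occurred at chr16:56737508-56737837 inside NUP93, 53476 bp past MT1X, with a height of 6, 9 and 5 in the controls. Without silenced replicate 3, 2 window regions were called in both other silenced and no control library, a pattern of 1.23% of all regions. In that setting 1 was called in all 3 control and neither other silenced library, a pattern of 0.333%. The order thus turned in the window and over all regions alike. A silenced-only call then needs fewer libraries than a control-only call. Over all regions the order turned in this way whichever silenced library was left out.

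To compare accessibility between groups, the 37284 shared regions were ranked by fold enrichment within each library, each rank was replaced by its normal score, and silenced was compared with control by limma with Benjamini-Hochberg adjustment over all of them. A score of 0 is the middle of a library and a higher score a stronger peak. MT2A scored 0.983, 0.654 and 0.290 in silenced and 0.741, 0.317 and 0.359 in control replicates 1 to 3. The groups overlapped, and the difference of 0.17 (SE 0.245) had an adjusted p of 0.972 in limma. Ranked by height in place of fold enrichment, the MT2A difference was -0.0257. MT1X scored 1.62, 2.49 and 0.591 in silenced and 1.21, 1.25 and 1.29 in control cells. Its difference of 0.318 (SE 0.317) had an adjusted p of 0.965 in limma, with 2 of 3 silenced libraries above all controls and the remaining library below them.

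None of the 9 shared window regions passed. Of these, 5 scored higher and 4 lower in silenced cells, the median difference was 0.0473 against 0.00662 over all shared regions, and the smallest adjusted p was 0.963 in limma. At an unadjusted p under 0.05, limma counted 0 window regions and 4.68% of all shared regions, and 0% of all shared regions passed after adjustment. The scores of the groups did not overlap for 0 of the 9 window regions and for 10.2% of all shared regions. MT1L differed by -0.656 (SE 0.521), BBS2 by -0.403 (SE 0.301) and NUP93 by 0.0473 (SE 0.238). Single silenced libraries moved the first 2 of these: MT1L ran from -0.01 without silenced replicate 1 to -1.27 without silenced replicate 2 (unadjusted p 0.0231, adjusted p 0.76 in limma), and BBS2 from -0.00609 without silenced replicate 3 to -0.719 without silenced replicate 2 (unadjusted p 0.0267, adjusted p 0.76 in limma).

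Silenced replicate 3 weighed on these values. Its score was the lowest of the 6 libraries at the gene starts MT2A, MT1X, BBS2 and NUP93, and also at the intergenic region chr16:56577015-56577361. It was the highest at chr16:56673960-56674326 and chr16:56701989-56702429, and at chr16:56513945-56514435 it lay below control replicate 2 and above the other 4 libraries. Without it the MT1X difference was 0.788 (SE 0.23), with an unadjusted p of 0.00365 and an adjusted p of 0.962 in limma. Of the 10 window regions called in the remaining 5 libraries, 2 (MT1X and NUP93, both higher in silenced) had groups that did not overlap, where 20.5% of 41835 regions did the same. The lower end of MT1E could then be fitted: its scores were -0.813 and -1.02 in silenced and -0.367, -0.175 and -0.834 in control cells, a difference of -0.457 (SE 0.402) with an adjusted p of 0.967 in limma.

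**Figure D4:**
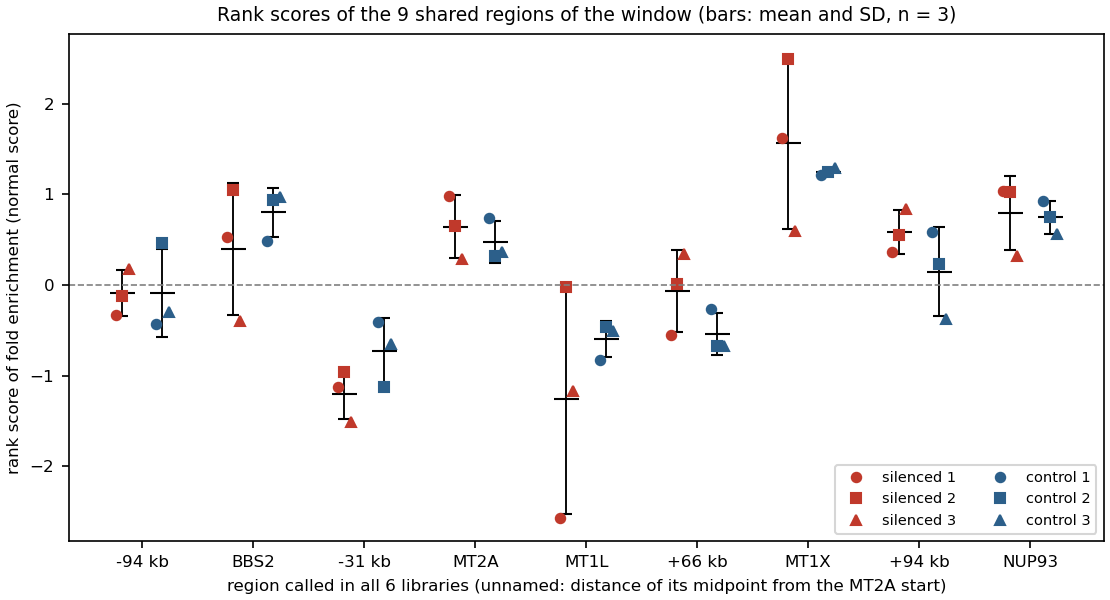
Rank score of fold enrichment (vertical axis, 0 is the middle of a library) for the 9 window regions called in all 6 libraries (horizontal axis; unnamed regions by their distance in kb from the MT2A start), with silenced libraries in red, control libraries in blue, the symbol shape for the replicate, and black bars for the mean and SD of 3 libraries. The groups overlap at every region, and silenced replicate 3 is the lowest point at BBS2, MT2A, MT1X and NUP93.

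Most starts of the wider zinc pathway were called. Of 25 genes, MTF1 and the zinc exporters (SLC30A) and importers (SLC39A), 19 had a peak at the start in all 6 libraries, 6 in 1 to 5 and 0 in none, beside 58.9% of protein-coding genes in all 6. MTF1, the metal sensor that binds MREs, had a height of 49, 59 and 30 in silenced and 60, 72 and 61 in control cells. SLC30A1, the zinc exporter of the plasma membrane and a known MTF1 target, had 101, 89 and 47 in silenced and 95, 110 and 107 in control cells. In both genes silenced replicate 3 was the lowest by deposited height, which is not scaled between libraries. By fold enrichment it was the lowest at MTF1 (12.5). At SLC30A1 its fold of 16.7 lay above silenced replicate 2 (15.1) and control replicate 2 (16.1). The 6 genes called in part were SLC30A3 (5 libraries), SLC30A8 (1 silenced and 3 control libraries) and SLC30A2, SLC39A2, SLC39A5 and SLC39A12 (1 library each).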

How the data were processed

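ATAC-seq peak lists of 6 NCI-H1703 libraries were used, 1 list per library, not pooled. The submitters' processing notes name Trimmomatic 0.36, Bowtie2 2.2.6, Picard 2.8.2, MACS2 2.1.1, bedtools 2.25.0 and GRCh38; their settings, a transposase offset shift and duplicate handling are not given in the sources used here. Per the file headers, each deposited peak has a fold enrichment (a ratio), a p-value, an FDR and a pileup signal, here called height. Every deposited p-value was at most 0.00987. These are the authors' values, not scaled between libraries, and served to describe, rank or filter within a list.

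The members and lists were chosen with earlier results of these data known. All members, the flanking genes, other metallothionein loci, every window region called in all 6 libraries or in 1 group only, MTF1, SLC30A1, partly called zinc genes and the 3 genes nearest to MT1X in pattern were named by rule. Gene spans came from RefSeq (GRCh38.p14); 15842 of 20037 protein-coding genes had a start in the promoter table, and either end stood in for the others. Regions were merged at an overlap of at least 1 bp. The background formula was checked: in silenced replicate 1, the weakest peaks had a Poisson tail of 0.00634 and a deposited p-value of 0.00634. Rank scores were fitted with limma 3.58.1 in R 4.3.3 (lmFit, eBayes with trend, adjusted p under 0.05). The fit was tested on simulated scores with a shift larger than any difference given here. That test therefore cannot show how well differences of the sizes given here would be found. Python 3.11.15 with pandas 2.3.3 did the rest. Alternatives were other filters, limits, rankings and fits, a replicate block, and leaving out each library.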

Additional observations from a re-analysis of the deposited data

How the results depend on the processing

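Peak counts in the window stayed lower in silenced cells in every setting run (-5.0 with all peaks, -2.67 at an FDR of at most 1e-05, -7.17 without control replicate 2 to -3.17 without control replicate 1). The difference in members called (-0.667) was -1.33 with a limit of 2 kb, -1.0 at an FDR of at most 1e-05, and -0.333 with equal list sizes, with a limit of 500 bp, without silenced replicate 2 and without control replicate 3. Regions called in 1 group only numbered 1 to 3 with 1 library left out, with 1 control-only region in each case except 2 without control replicate 2 (1.37% of all regions), and with 1 silenced-only region without silenced replicate 1 (0.819%), 2 without silenced replicate 3 (1.23%) and 0 otherwise. No window region passed limma's threshold in any of the settings. The MT2A difference in rank score was -0.0257 ranked by height, -0.00577 ranked by p-value and -0.000155 to 0.33 with 1 library left out. With 1 library left out, MT1X ran from -0.142 (without silenced replicate 2) to 0.788 (without silenced replicate 3) and NUP93 from -0.0755 to 0.275. The cause was not tested. At an FDR of at most 1e-05, MT1E was no longer called in all 6 libraries, and BBS2 and MT1L could not be fitted.

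Same-numbered libraries did not deviate together over the shared regions (correlations -0.00196, 0.00238 and -0.00829). Of the 6 libraries, 1 correlated best with its own number. The labels do not say whether same-numbered libraries were handled together, and these correlations cannot decide it. With a replicate block, MT2A differed by 0.17 and MT1X by 0.318, and limma passed 0 regions. Depth limits weak members: one under the peak threshold may still be accessible. An alternative added after seeing the data measured every member from either end of its span, and the difference in members called was then -1.0.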
